A study of Mus musculus with 29 samples.

Results

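Neuroblastomas of TH-MYCN mice were compared by a hypoxia score, the mean log2 signal of Bnip3, Ankrd37, Egln3, Adm and Ndrg1. Of 24 primary abdominal tumours, the 8 with the highest score (score-high) and the 8 with the lowest (score-low) were chosen by this rule. The 8 between them (middle) stayed out of the comparison of these groups. The series held 29 samples in all, the other 5 being total bone marrow, each measured on 1 Affymetrix mouse expression array. All animals were labelled strain 129X1/SvJ and carried the TH-MYCN transgene, in which the tyrosine hydroxylase promoter drives MYCN in sympathoadrenal cells. Caspase-8 was labelled deficient in 17 of the 24 tumours and wild type in 7, so the score-high group held 4 deficient and 4 wild-type tumours, and the score-low group 7 deficient and 1 wild-type tumour. The labels give no age and no oxygen measurement, and do not say in which cells caspase-8 was lost or whether any 2 samples shared an animal. P-values therefore measure only the spread between these samples. The groups were cut from measured values on the same arrays, so each test asks which other genes went with the score, not what low oxygen or a treatment did.

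Cells sense oxygen through prolyl hydroxylases, which mark the alpha subunits of hypoxia-inducible factor (HIF) for destruction by the VHL ligase complex. When oxygen is short the subunits persist, pair with ARNT and bind genes for glucose use, vessel growth, acid handling and the hydroxylases themselves. Sympathoadrenal cells, from which neuroblastoma arises, also express much of the HIF-2 subunit Epas1, and secrete catecholamines and peptides from dense-core granules.

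The genes used for scoring are described without a test, since they define the groups. The score spanned 7.17 to 8.33 in score-high tumours, 6.89 to 7.11 in middle tumours and 6.40 to 6.76 in score-low tumours. The tumours just inside and just outside the upper boundary had scores of 7.17 and 7.11, and those at the lower boundary 6.76 and 6.89, and the widest step between neighbours, 7.67 to 7.24, lay inside the score-high group. Adm, which encodes the vasodilator peptide adrenomedullin, moved most, with 7.84 to 9.32 in score-high tumours and 5.45 to 7.74 in score-low tumours. Egln3, a HIF prolyl hydroxylase, spanned 4.30 to 7.29 in score-high tumours and 3.75 to 4.93 in score-low tumours. Both its groups overlapped, unlike those of Bnip3, a mitophagy receptor, at 8.19 to 9.60 in score-high tumours and 7.76 to 8.10 in score-low tumours. Ankrd37, an ankyrin-repeat protein gene, lay at 6.13 to 7.11 in score-high tumours and 5.54 to 6.14 in score-low tumours. Ndrg1, a stress-induced gene of the N-myc downstream-regulated family, overlapped widely, at 8.19 to 9.16 in score-high tumours and 7.74 to 8.74 in score-low tumours. Across the 24 tumours, whose values come from one deposited table, Pearson's r between pairs of scoring genes ran from 0.27 for Adm with Ndrg1 to 0.86 for Bnip3 with Egln3. Adm and Egln3 spread most over the 24 tumours (SD 0.92 and 0.90) and Ndrg1 least (SD 0.40), so the first 2 weigh most in a mean of log2 values. Membership of the groups did not follow this weight alone. A score without Egln3 kept all 8 score-high and all 8 score-low tumours, as did a mean of values scaled to each gene's SD. A score without Ndrg1 kept 7 score-high and 8 score-low tumours.

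**Figure D1:**
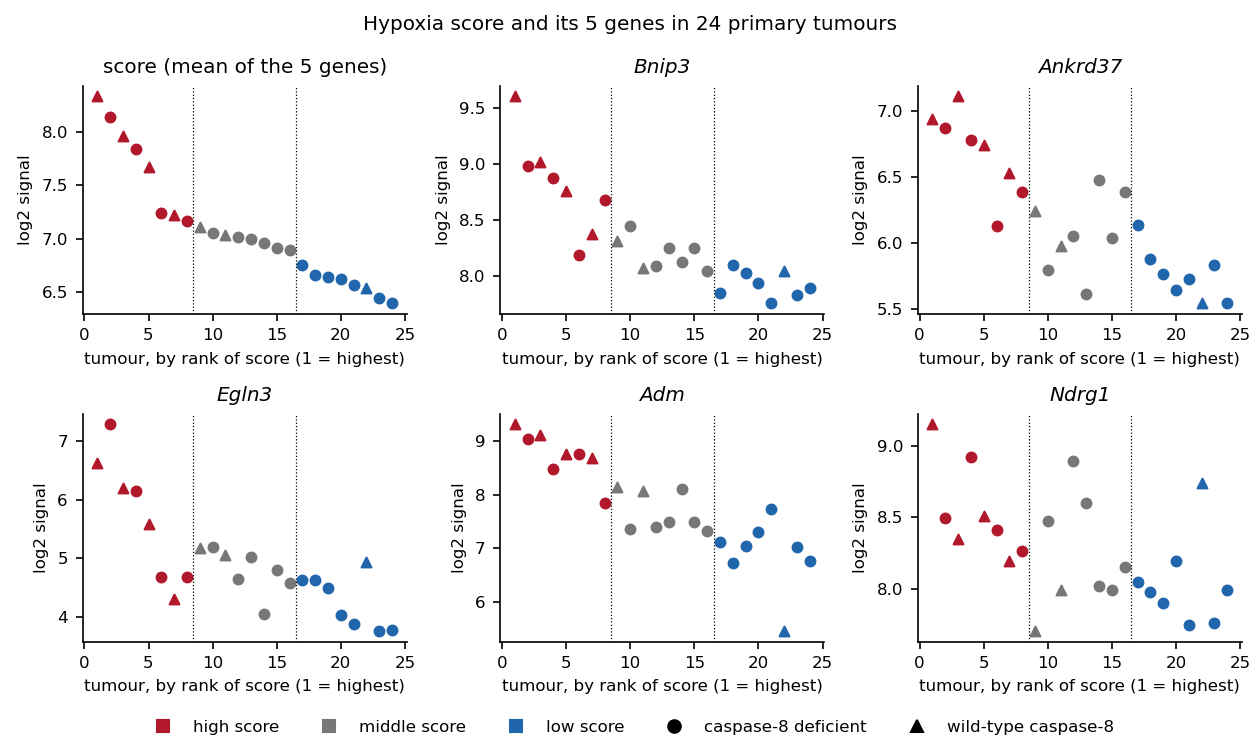
Log2 array signal of the hypoxia score and of its 5 genes (y axes) in the 24 primary tumours ordered by score (x axes, 1 = highest). Dotted lines bound the score-high, middle and score-low tumours, circles are caspase-8 deficient and triangles wild-type tumours, and the score runs from 8.33 to 6.40, with its widest step between ranks 5 and 6 (7.67 and 7.24), inside the score-high group.

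With the scoring genes left out, 527 of 18188 genes passed an adjusted p of 0.05 (limma, Benjamini-Hochberg), which is 2.9% of those tested. Of these, 230 were higher (1.26% of genes tested) and 297 lower (1.63%) in score-high tumours. A difference of at least 2-fold was found for 72 of them, 31 higher and 41 lower. Npy, Doc2b and Scg2 had the largest positive differences and Aplnr, Col14a1 and Col6a3 the largest negative ones. For 520 of the 527 (98.7%) the mean of the middle tumours lay between the means of both groups, against 48.4% of all genes tested. Called genes were picked for group means that lay far apart, which favours a middle mean between them. These shares therefore do not test a graded relation with the score. The median difference over all genes was -0.03, and 40.3% of all genes tested had a positive difference. In 41 genes (0.225%) every score-high tumour was above every score-low tumour, and in 40 (0.22%) every one was below.

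These counts moved with the samples and with the make-up of the score. Leaving out 1 tumour gave from 166 called genes (without deficient tumour 16, score-low) to 1100 (without deficient tumour 3, score-high), and 147 genes were called in all 16 such fits. A score without Adm kept 6 of the 8 score-high and 7 of the 8 score-low tumours and left 22 called genes, yet all 527 kept their sign. Only Vgf, Rgs4, Tmod1, Actg2 and Pfkp then kept their call among the 64 called genes named by rule.

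Wild-type tumours were more frequent in the score-high group (4 of 8) than in the score-low group (1 of 8), a difference that Fisher's exact test did not call (two-sided p = 0.282). Over all 24 tumours the score averaged 6.96 ± 0.46 in deficient tumours (SD, n = 17) and 7.41 ± 0.61 in wild-type tumours (SD, n = 7; permutation test of the difference of -0.45, two-sided p = 0.0706). The titles number the tumours in 2 series. In the series numbered 100 and above the difference was -0.87 (n = 10 deficient and 4 wild type, exact permutation p = 0.00999), and in the series below 100 it was 0.13 (n = 7 deficient and 3 wild type, exact permutation p = 0.7). With genotype as a covariate 273 genes were called (1.5%), and within deficient tumours alone, 4 score-high against 7 score-low, 56 were (0.308%). Among the lists described below, the genotype covariate gave 2 interstitial matrix, 2 pericyte and smooth muscle, 1 endothelial and 1 basement membrane gene called lower. It also gave 2 macrophage markers, 1 cell cycle gene and 0 MYC targets called lower, and 4 chromaffin markers called higher. Casp8 signal did not separate the labels, at 4.68 to 6.41 in deficient tumours and 5.23 to 6.91 in wild-type tumours. The labels do not place its probe set inside or outside the deleted part, so it checks nothing. Casp8 had 4.68, 5.52 and 6.31 (lowest, median, highest) in score-high tumours and 5.19, 5.83 and 6.91 in score-low tumours, a difference of -0.39 (adjusted p = 0.352).

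The other genes of the oxygen response were read list by list, beside the 2.9% of all genes that were called. None of 12 HIF subunits and oxygen-sensing genes was called, and their median difference was 0.02. Hif1a, the HIF-1 alpha subunit, spanned 9.96 to 10.71 in score-high tumours and 10.26 to 10.73 in score-low tumours (difference -0.25, adjusted p = 0.139). Epas1 spanned 8.62 to 10.18 in score-high tumours and 8.92 to 9.73 in score-low tumours (0.02, 95% interval -0.35 to 0.40, adjusted p = 0.961). Vhl, the recognition subunit of the ligase, differed by 0.13 (adjusted p = 0.419), Hif3a, an alpha subunit with inhibitory forms, by -0.34 (adjusted p = 0.207), and Cited2, which competes with HIF for its coactivator, by 0.24 (adjusted p = 0.322). HIF is controlled mainly by protein stability, which arrays do not measure.

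Of 19 genes of glucose transport and glycolysis 1 rose, 17 had a positive difference, and the median was 0.16. The gene that rose was Pfkp, the platelet-type phosphofructokinase, with lowest, median and highest signals of 9.11, 9.82 and 10.06 in score-high tumours and 8.85, 8.99 and 9.33 in score-low tumours (0.65 ± 0.12 SE, adjusted p = 0.0125). A single score-high tumour reached into the score-low range. Slc2a1, the glucose transporter GLUT1, lay just outside the threshold, at 7.46, 8.37 and 9.14 in score-high tumours and 7.21, 7.51 and 7.93 in score-low tumours (0.78 ± 0.21 SE, adjusted p = 0.0509). Pdk1, the kinase that keeps pyruvate out of mitochondria, differed by 0.69 (adjusted p = 0.0639) and Aldoa, an aldolase, by 0.38 (adjusted p = 0.062). A further fit took the score as a continuous measure over all 24 tumours, with slopes scaled to the gap between the group mean scores. It called 168 genes, among them 3 of the 19, all higher. They were Pfkp (0.56, adjusted p = 0.00209), Slc2a1 (0.87, adjusted p = 0.00462) and Aldoa (0.43, adjusted p = 0.00637), while Pdk1 was not called (0.72, adjusted p = 0.0741). Ldha, the lactate dehydrogenase subunit made under hypoxia, spanned 11.52 to 11.98 in score-high tumours and 11.51 to 11.72 in score-low tumours and differed by 0.13 (95% interval -0.01 to 0.27, adjusted p = 0.289).

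Among 45 other HIF target genes 1 rose and 1 fell, with a median of 0.08. In the fit of the continuous score 8 of the 45 were called higher and none lower. Kdm3a, a histone demethylase induced by hypoxia, rose without overlap, with 8.67, 9.0 and 9.26 in score-high tumours and 8.21, 8.43 and 8.55 in score-low tumours (0.57 ± 0.08 SE, adjusted p = 0.00289). It was called in all 16 fits that left out a tumour and within deficient tumours alone (0.52, adjusted p = 0.0325), but not without Adm in the score (0.41, adjusted p = 0.168) or with the mean of interstitial matrix genes as a covariate (the matrix covariate, 0.41, adjusted p = 0.158). Within deficient tumours alone 12 of the 64 called genes named by rule kept their call, and Pfkp (0.61, adjusted p = 0.117), Pgf (0.91, adjusted p = 0.0598) and Th (1.29, adjusted p = 0.104) did not. Higd1a, a mitochondrial respiratory-complex factor, fell by 0.33 (adjusted p = 0.0471), but the mean of its probe sets differed by 0.07 in the opposite direction, and its call held in 4 of the 16 fits. Vldlr, a lipoprotein receptor, differed by 0.76 (adjusted p = 0.0522) and was called with the continuous score (0.80, adjusted p = 0.00976).

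Of 15 angiogenic ligands 2 rose, while the list median was -0.06 and turned positive without Adm in the score (0.07), in deficient tumours alone (0.04) and with the matrix covariate (0.25). Pgf, placental growth factor and a ligand of the receptor Flt1, had 5.83, 6.71 and 7.34 in score-high tumours and 5.58, 5.73 and 5.93 in score-low tumours (0.93 ± 0.18 SE, adjusted p = 0.0151). One score-high tumour lay within the score-low range. Vegfa, the main endothelial growth factor, had 7.09, 7.73 and 8.35 in score-high tumours and 6.31, 7.07 and 7.56 in score-low tumours (0.76 ± 0.20 SE, adjusted p = 0.0495), and its call held in 4 of the 16 fits that left out a tumour. The mean of its probe sets differed by 0.42 and was not called (adjusted p = 0.111). With the continuous score over 24 tumours Vegfa was called (0.77, adjusted p = 0.00755). Pdgfa, which recruits mesenchymal cells, differed by -0.53 (adjusted p = 0.0641), and Hgf, a motility factor, was dim in both groups and differed by -0.19 (adjusted p = 0.216).

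**Figure D2:**
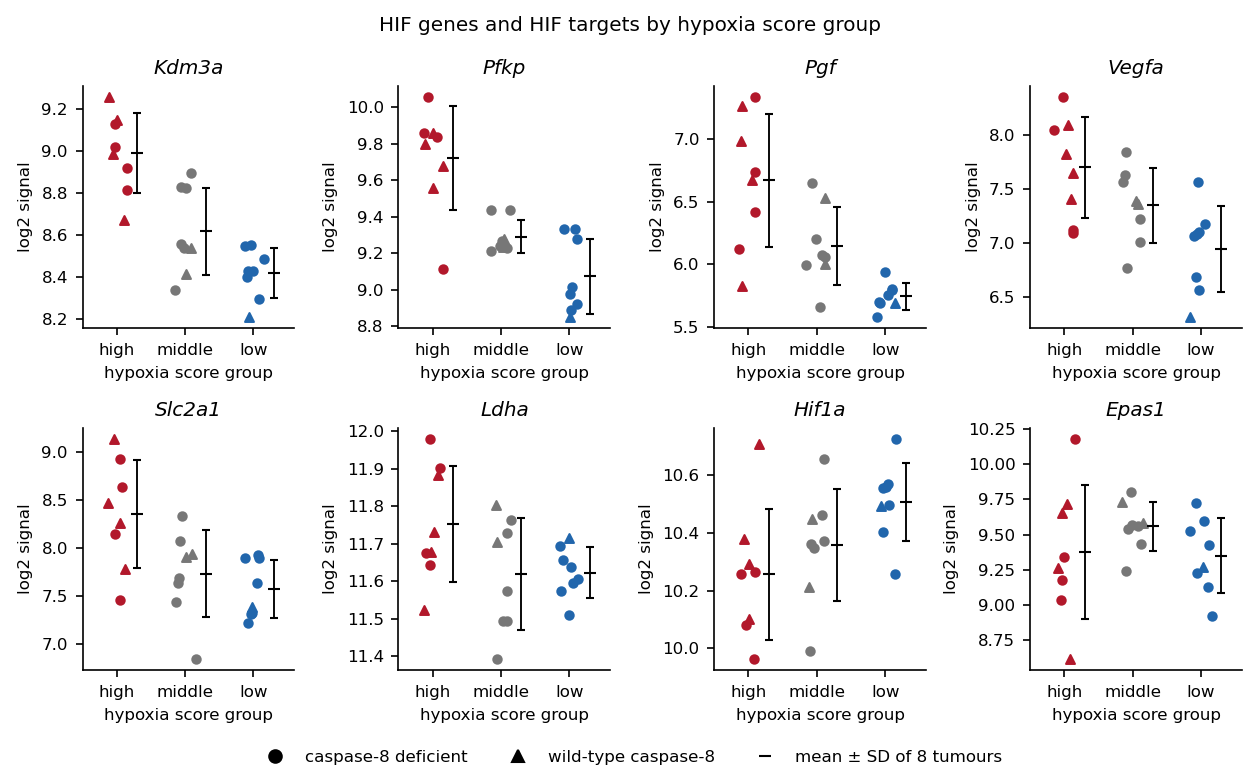
Log2 signal (y axes) of HIF targets and HIF subunit genes in score-high, middle and score-low tumours, 8 in each, with the mean and SD beside the points. Kdm3a separates the score-high from the score-low tumours (8.67 or more against 8.55 or less), while the groups overlap in Hif1a, Epas1 and Ldha.

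The upstream sequences of the HIF targets that rose are shown because HIF binds a core of ACGTG or GCGTG. They are the 250 bases before the most upstream RefSeq start of each gene in assembly GRCm38.p6, written in the gene's own direction, and capitals mark a core on either strand (CACGC is GCGTG read from the opposite strand). The regions are chr6:71632918-71633167 for Kdm3a, chr13:6648772-6649021 for Pfkp and chr12:85177314-85177563 for Pgf, all on the minus strand.
Kdm3a: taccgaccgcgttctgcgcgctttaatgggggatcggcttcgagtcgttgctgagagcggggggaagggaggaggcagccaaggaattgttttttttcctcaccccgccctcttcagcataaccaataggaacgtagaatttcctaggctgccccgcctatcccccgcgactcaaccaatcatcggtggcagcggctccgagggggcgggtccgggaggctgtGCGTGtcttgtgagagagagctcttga
Pfkp: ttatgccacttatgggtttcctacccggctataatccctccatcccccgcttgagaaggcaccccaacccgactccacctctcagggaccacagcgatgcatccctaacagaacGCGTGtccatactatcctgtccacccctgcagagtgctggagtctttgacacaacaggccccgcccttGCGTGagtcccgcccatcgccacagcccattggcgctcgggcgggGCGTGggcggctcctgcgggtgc
Pgf: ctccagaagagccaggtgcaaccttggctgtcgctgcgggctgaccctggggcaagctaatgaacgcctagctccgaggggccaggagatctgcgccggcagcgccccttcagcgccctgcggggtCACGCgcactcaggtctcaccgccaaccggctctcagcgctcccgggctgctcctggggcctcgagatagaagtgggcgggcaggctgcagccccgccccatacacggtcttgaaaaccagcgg
Kdm3a had 1 core, 27 to 23 bases upstream of the start, Pfkp had 3 and Pgf 1. The 250 bases before the most upstream Vegfa start (chr17:46032378-46032627, minus strand) held neither core nor the cAMP element described next. Such short cores are common. At least 1 of them was found in 62.4% of the 178 genes that were called higher and matched a window, in 58% of the 231 called lower and in 53.6% of the 14364 tested genes with a window, a gene counting if any of its windows held it. ACGTG alone was in 27.5% of called-higher genes, 25.5% of called-lower genes and 22.5% of tested genes, and GCGTG was in 50% of called-higher genes, 45.5% of called-lower genes and 42.5% of tested genes. Over all 32851 windows, without grouping by gene, the shares were 16.6% for ACGTG and 28.2% for GCGTG. A match is a description of letters and not a binding site.

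The 3 genes with the largest positive differences were Npy, Doc2b and Scg2. Npy, the sympathetic co-transmitter neuropeptide Y, had lowest, median and highest signals of 9.20, 11.21 and 12.07 in score-high tumours and 7.30, 8.32 and 9.05 in score-low tumours. It was 6.72-fold higher (2.75 ± 0.36 SE on the log2 scale, adjusted p = 0.0024), and the groups did not overlap. Doc2b, a calcium sensor for vesicle fusion, had 5.83, 7.38 and 8.04 in score-high tumours and 3.86, 4.82 and 5.33 in score-low tumours (2.43 ± 0.26 SE, adjusted p = 0.000888). These groups were also apart. Scg2, the granule protein secretogranin II, had 6.85, 7.83 and 8.41 in score-high tumours and 4.80, 5.27 and 6.97 in score-low tumours (2.21 ± 0.28 SE, adjusted p = 0.00221), with 1 score-low tumour, wild type tumour 1, inside the score-high range. Vgf, a granule protein and peptide precursor, had 7.64, 8.85 and 9.48 in score-high tumours and 6.0, 6.62 and 7.36 in score-low tumours (2.05 ± 0.27 SE, adjusted p = 0.00221), again without overlap. Npy (2.05, adjusted p = 0.111), Doc2b (1.91, adjusted p = 0.136) and Scg2 (1.71, adjusted p = 0.104) lost their calls with Adm left out of the score. Vgf kept its call there (1.75, adjusted p = 0.0319).

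Th, tyrosine hydroxylase, the rate-limiting enzyme of catecholamine synthesis, was also separate in the groups. It had 11.13, 11.70 and 11.91 in score-high tumours and 9.33, 10.35 and 11.02 in score-low tumours, a 2.51-fold difference (1.33 ± 0.22 SE, adjusted p = 0.00803). Th lost its call with Adm left out of the score (0.997, adjusted p = 0.177). Dbh, which converts dopamine to noradrenaline, had 7.95, 8.46 and 9.37 in score-high tumours and 6.49, 7.80 and 8.44 in score-low tumours (0.77, adjusted p = 0.104). Slc18a1, the granule monoamine transporter VMAT1, rose by 0.81 (adjusted p = 0.0147), and Scg3, a granule sorting protein, rose by 0.28 (adjusted p = 0.0453, called in 4 of the 16 fits that left out a tumour). Endogenous Mycn, which is not the transgene, differed by 0.21 (7.34 to 7.86 in score-high tumours and 7.3 to 7.7 in score-low tumours, adjusted p = 0.131).

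The remaining genes with large positive differences had varied roles. Nts, the neurotensin precursor, rose by 1.84 (adjusted p = 0.0349), Pomc, the precursor of ACTH and endorphin, by 1.49 (adjusted p = 0.0181), and Resp18, an endocrine secretory protein, by 1.5 (adjusted p = 0.0128). Rgs4, which shortens G-protein signals, had 10.10, 10.85 and 11.19 in score-high tumours and 8.77, 9.24 and 9.79 in score-low tumours (1.42 ± 0.17 SE, adjusted p = 0.00221), without overlap. The guidance ligands Slit1 and Sema3c rose by 1.45 (adjusted p = 0.00289) and 1.55 (adjusted p = 0.0471), the actin capper Tmod1 by 1.40 (adjusted p = 0.00278), and the less well known Dzank1 and Tmem130 by 1.45 (adjusted p = 0.0175) and 1.44 (adjusted p = 0.0125). Of these genes, Nts was called in 9 and Sema3c in 3 of the 16 fits that left out a tumour, and the rest in all 16.

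Over all genes tested, 1.26% were called higher. By list, 4 of 13 chromaffin markers rose (Npy, Scg2, Vgf and Slc18a1) and none fell, with a median of 0.50. Without Adm in the score 1 was called and the median was 0.26, and with the matrix covariate 1 was called and it was 0.38. The mean level of the list did not overlap, at 8.28 to 8.96 in score-high tumours, 7.75 to 8.34 in middle tumours and 7.54 to 7.90 in score-low tumours. Of 23 sympathoadrenal lineage genes, some of which are also on the chromaffin list, 4 rose (Scg2, Th, Slc18a1 and Scg3) and the median was 0.13. None of the 23 was called with Adm left out of the score, where the median was 0.14. Of 21 neuronal differentiation genes 1 rose, with a median of 0.15 that was 0.03 without Adm in the score. It was Mapt, the microtubule protein tau, with 6.6, 7.25 and 7.96 in score-high tumours and 6.06, 6.27 and 6.78 in score-low tumours (0.91 ± 0.16 SE, adjusted p = 0.00839). L1cam, an adhesion molecule, differed by 0.61 (adjusted p = 0.0562), Syn1, a synaptic vesicle protein, by 0.30 (adjusted p = 0.139) and Nefh, the heavy neurofilament, by -0.25 (adjusted p = 0.117). The mean of the sympathoadrenal list was 9.13 to 9.42 in score-high tumours and 8.76 to 9.07 in score-low tumours. Members differed widely in signal, with Th at 9.33 or more in every tumour of both groups and Slc18a1 at 4.88 to 5.66 in score-low tumours.

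**Figure D3:**
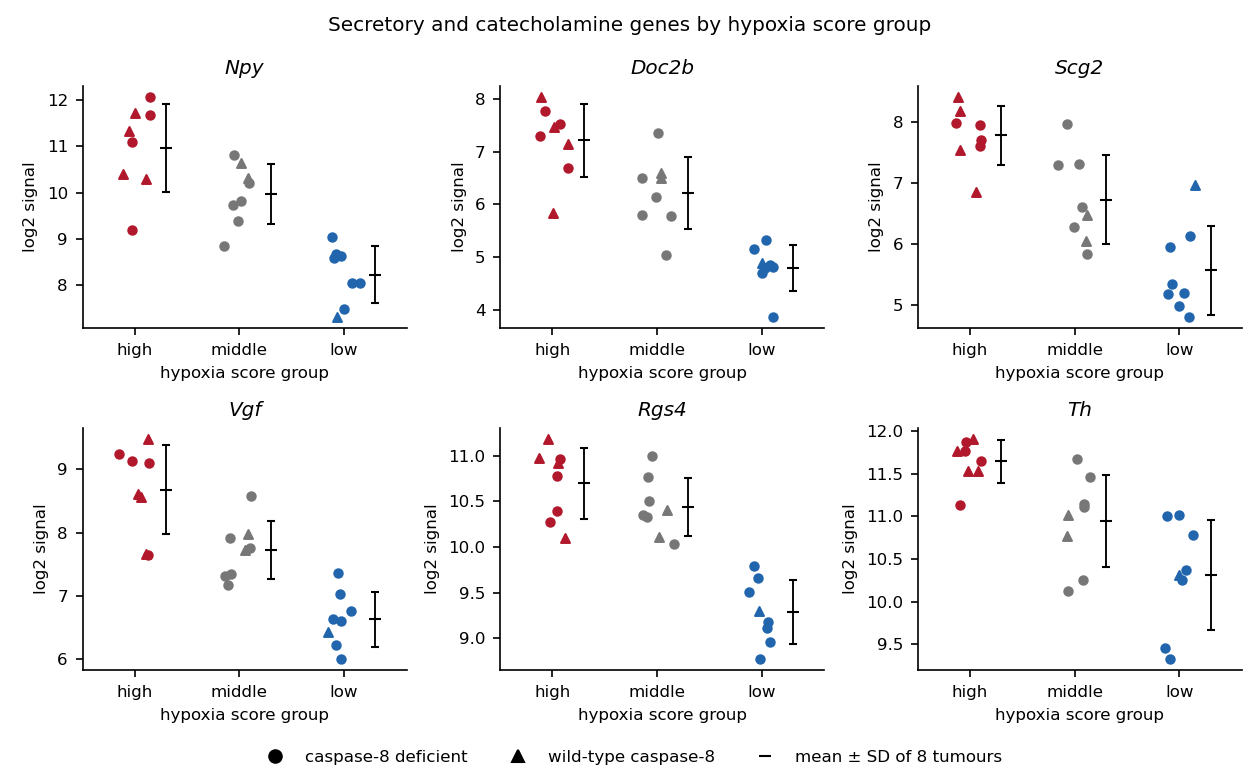
Log2 signal (y axes) of secretory and catecholamine genes in score-high, middle and score-low tumours, 8 in each, with the mean and SD beside the points. Npy, Doc2b, Vgf, Rgs4 and Th do not overlap between score-high and score-low tumours, and the means of the middle tumours lie between.

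The upstream windows of Scg2 (chr1:79440027-79440276, minus strand) and Th (chr7:142899996-142900245, minus strand) are shown because both hold the cAMP response element TGACGTCA, a palindrome bound by CREB and related factors. This motif was chosen after the values were seen. Windows, build and capitals are as above, with the element also in capitals.
Scg2: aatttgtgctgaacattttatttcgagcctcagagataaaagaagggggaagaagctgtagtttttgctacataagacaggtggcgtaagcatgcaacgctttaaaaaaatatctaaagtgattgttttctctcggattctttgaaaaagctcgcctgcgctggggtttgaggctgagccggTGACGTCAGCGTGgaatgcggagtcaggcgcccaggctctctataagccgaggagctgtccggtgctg
Th: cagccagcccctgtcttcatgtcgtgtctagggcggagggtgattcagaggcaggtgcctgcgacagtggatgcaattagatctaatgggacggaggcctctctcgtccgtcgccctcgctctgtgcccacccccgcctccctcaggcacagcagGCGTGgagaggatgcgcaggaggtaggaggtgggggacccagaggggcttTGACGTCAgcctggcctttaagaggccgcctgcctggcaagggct
The element lay 68 to 61 bases upstream of the start in Scg2, with a GCGTG directly after it and not overlapping it, and 45 to 38 bases upstream in Th. TGACGTCA was present in 6.74% of called-higher genes (12 genes), 1.73% of called-lower genes and 2.51% of tested genes with a window, and in 1.55% of all windows. The 12 included Celf6, an RNA-binding protein gene of neurons (1.30, adjusted p = 0.00278), and Dusp1, an inducible MAP kinase phosphatase (0.54, adjusted p = 0.0396), both named after their values were seen. Npy had no TGACGTCA in its window.

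Immediate early genes, which respond within minutes to growth factors, depolarisation or stress, were partly higher. Of 19 measured, 4 rose, beside 1.26% of all genes called higher, none fell, and the median was 0.36. None was called with Adm left out of the score, where the median was 0.38. Fosl2, an AP-1 subunit, had 7.44, 7.58 and 8.4 in score-high tumours and 6.68, 6.95 and 7.24 in score-low tumours (0.80 ± 0.14 SE, adjusted p = 0.00839), without overlap. Fos, the prototype of the class, had 7.49, 7.80 and 10.40 in score-high tumours and 5.46, 6.39 and 8.37 in score-low tumours (1.65 ± 0.42 SE, adjusted p = 0.0471). The Fos call held in 4 of the 16 fits that left out a tumour. Ier3, a stress-induced survival gene, rose by 0.81 (adjusted p = 0.0448) and Dusp1 by the value given above, with their calls held in 5 and 7 of those fits. The mean level of the list overlapped, at 6.10 to 7.05 in score-high tumours and 5.83 to 6.48 in score-low tumours.

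The largest negative difference was that of Aplnr. This gene, the apelin receptor of sprouting endothelium, had 3.70, 5.99 and 6.81 in score-high tumours and 7.43, 8.39 and 9.28 in score-low tumours, and was 6.01-fold lower without overlap (-2.59 ± 0.38 SE on the log2 scale, adjusted p = 0.00326). Aplnr lost its call with Adm left out of the score (-2.28, adjusted p = 0.0903). Of 24 endothelial markers 4 fell, beside 1.63% of all genes called lower, and none rose, with a median of -0.55. Tek, the angiopoietin receptor Tie2, had 3.33, 3.68 and 4.09 in score-high tumours and 4.34, 4.78 and 5.87 in score-low tumours (-1.17 ± 0.19 SE, adjusted p = 0.00628), also without overlap. The transcription factor Sox18 fell by 0.79 (adjusted p = 0.045) and Ets1 fell by 0.77 (adjusted p = 0.0381), and Ramp2, which pairs with the receptor of adrenomedullin, fell by 0.65 (adjusted p = 0.0294). Of the 16 fits that left out a tumour, Sox18 was called in 3, Ets1 in 6 and Ramp2 in 9. The other 20 endothelial markers did not pass, and without Adm in the score none did (median -0.30). Rbp7, a retinol-binding protein of vessels and fat, fell by 1.67 (adjusted p = 0.0416), and Tcim, a small regulator of transcription, fell by 1.5 (adjusted p = 0.0235).

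Of 14 pericyte and smooth muscle markers 5 fell, beside 1.63% of all genes called lower, none rose, and the median was -0.59. None was called with Adm left out of the score (median -0.44) or with the matrix covariate (median -0.25). Acta2, smooth muscle actin, had 7.88, 9.0 and 9.83 in score-high tumours and 10.04, 10.28 and 11.04 in score-low tumours (-1.40 ± 0.24 SE, adjusted p = 0.0082), without overlap. By the mean of its probe sets Acta2 differed by less and kept its call (-0.62, adjusted p = 0.00745). Its partners in the contractile apparatus fell with it. Myh11, smooth muscle myosin, fell by 1.40 (adjusted p = 0.0215), Tagln, transgelin, fell by 1.27 (adjusted p = 0.00964), and Mylk, myosin light chain kinase, fell by 1.24 (adjusted p = 0.0312). Actg2, enteric smooth muscle actin, fell by 1.45 (adjusted p = 0.0174), and Myl9, a myosin light chain, fell by 1.46 (adjusted p = 0.0235). Notch3, the receptor of mural cells and the fifth marker on the list, fell by 0.64 (adjusted p = 0.0446) and is named after its value was seen.

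**Figure D4:**
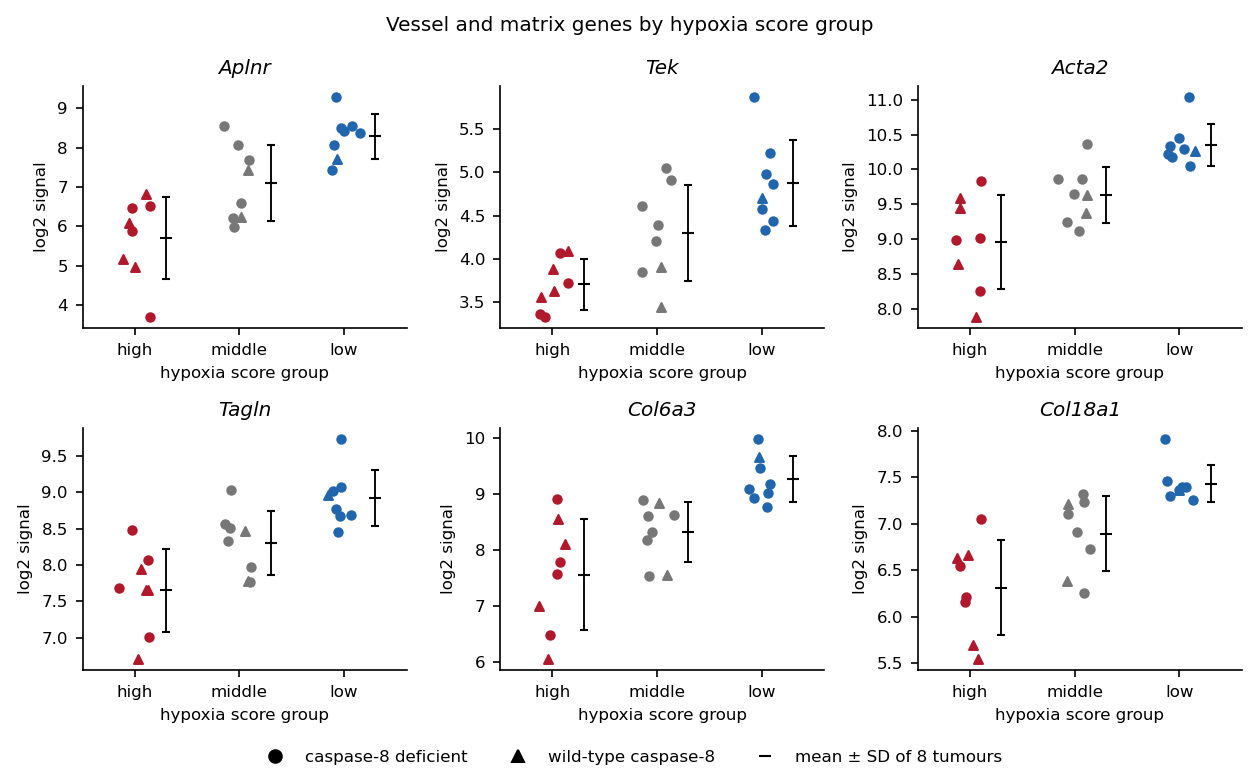
Log2 signal (y axes) of vessel, mural-cell and matrix genes in score-high, middle and score-low tumours, 8 in each, with the mean and SD beside the points. Aplnr, Tek, Acta2 and Col18a1 are lower in every score-high than in every score-low tumour, and Tagln and Col6a3 overlap.

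Of 23 interstitial matrix genes 9 fell, beside 1.63% of all genes called lower, none rose, and the median was -0.94. Col6a3, a chain of type VI collagen, had 6.04, 7.67 and 8.91 in score-high tumours and 8.76, 9.14 and 9.99 in score-low tumours (-1.71 ± 0.35 SE, adjusted p = 0.0188). A score-high tumour, deficient tumour 3, reached into the score-low range. Col1a2, a chain of type I collagen, fell by 1.38 (adjusted p = 0.0347), Col5a2, of type V collagen, fell by 1.46 (adjusted p = 0.023), and Bgn, the proteoglycan biglycan, fell by 0.97 (adjusted p = 0.0345). Outside the list, Col14a1, a collagen that associates with fibrils, fell by 1.91 (adjusted p = 0.0147), the mesenchymal cadherin Cdh11 fell by 1.68 (adjusted p = 0.0165), and the collagen-binding integrin subunit Itga1 fell by 1.52 (adjusted p = 0.0151). Fmod, a fibril-binding proteoglycan, fell by 1.52 (adjusted p = 0.0433), Col8a1, a collagen of vessel walls, fell by 1.48 (adjusted p = 0.0345), and Serpinh1, the collagen chaperone, fell by 1.47 (adjusted p = 0.0381). The last 3 and Bgn were each called in 8 or fewer of the 16 fits that left out a tumour, Col1a2 in 9 and Rbp7 in 2. By the mean of its probe sets Serpinh1 was not called (-1.12, adjusted p = 0.093). Without Adm in the score no gene of the matrix list was called and its median was -0.47.

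Basement membrane genes followed, with 4 of 14 lower, beside 1.63% of all genes, none higher and a median of -0.64. None was called with Adm left out of the score, where the median was -0.49. Col18a1, the source of endostatin, had 5.54, 6.38 and 7.05 in score-high tumours and 7.26, 7.38 and 7.91 in score-low tumours (-1.12 ± 0.18 SE, adjusted p = 0.00628), without overlap. It was also called within deficient tumours alone (-0.95, adjusted p = 0.0371). The laminin chain Lama5 fell by 0.41 (adjusted p = 0.021), the collagen Col15a1 fell by 0.56 (adjusted p = 0.0461) and nidogen 2 (Nid2) fell by 0.71 (adjusted p = 0.047), these last 2 being called in 2 of the 16 fits that left out a tumour. By the mean of its probe sets Lama5 was not called (-0.16, adjusted p = 0.146).

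Marker lists of stromal cells had lower median levels in score-high tumours, beside the genes above. In bulk samples, fewer cells of a type and less RNA per cell cannot be told apart. With the score as a continuous measure over 24 tumours, 3 pericyte and smooth muscle markers, 1 interstitial matrix gene and no endothelial marker were called lower. The mean of the interstitial matrix list was 6.12 to 7.85 in score-high tumours and 7.32 to 8.56 in score-low tumours, that of endothelial markers 5.02 to 6.64 in score-high tumours and 5.97 to 6.49 in score-low tumours, and that of pericyte and smooth muscle markers 5.79 to 7.52 in score-high tumours and 7.20 to 7.78 in score-low tumours. With the matrix mean as a covariate, an alternative added after seeing the data, 7 genes were called (0.0385%), all higher, and they were B3galt2, Dagla, Doc2b, Rgs4, Rnf128, Scg2 and Tent5a. Doc2b then differed by 2.41 (adjusted p = 0.0289), Scg2 by 2.44 (adjusted p = 0.0289) and Rgs4 by 1.5 (adjusted p = 0.0294), near their values without the covariate. Of the 64 called genes named by rule, 3 kept their call and all 64 their sign. Among those that lost it, Npy was 2.85 (adjusted p = 0.0748), Vgf 1.93 (adjusted p = 0.114), Aplnr -2.52 (adjusted p = 0.138) and Tek -1.16 (adjusted p = 0.158), close to their differences without the covariate. Others that lost it shrank, among them Tagln (-1.27 to -0.62, adjusted p = 0.25), Myh11 (-1.40 to -0.54, adjusted p = 0.37), Acta2 (-1.40 to -0.78, adjusted p = 0.239) and Th (1.33 to 1.03, adjusted p = 0.222). List medians shrank for endothelial markers (-0.55 to -0.29), pericyte and smooth muscle markers (-0.59 to -0.25) and basement membrane genes (-0.64 to -0.20). Col1a2 and Bgn, which are part of the covariate, were at -0.25 (adjusted p = 0.507) and -0.22 (adjusted p = 0.521). The part of stromal content in the other results was not tested further.

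Macrophage markers were mostly negative in sign, in a comparison where 40.3% of all genes tested were positive. Of 20, 1 fell, beside 1.63% of all genes called lower, and the median was -0.45, but -0.01 without Adm in the score. The list means were 6.37 to 7.97 in score-high tumours and 6.93 to 8.59 in score-low tumours. Lyz2, lysozyme of myeloid cells, fell by 0.73 (adjusted p = 0.0439), a call that held in 4 of the 16 fits that left out a tumour. Adgre1, a macrophage surface antigen, differed by -1.01 (adjusted p = 0.0827), and C1qa, a complement chain, by -0.51 (adjusted p = 0.174). Arg1, arginase 1, which HIF can induce in macrophages, went the other way in sign, at 6.4, 6.84 and 8.82 in score-high tumours and 5.46, 6.08 and 7.43 in score-low tumours (1.06, adjusted p = 0.0949).

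Proliferation and biosynthesis genes differed by small amounts. Over all genes tested, 1.63% were called lower. Of 29 cell cycle genes 6 fell, none rose, and the median was -0.21. With Adm left out of the score none was called and the median was -0.19. The replication origin factor Gins2 fell by 0.37 (adjusted p = 0.0345) and Cdc6 fell by 0.41 (adjusted p = 0.0439), and of the mitotic genes Aurka fell by 0.31 (adjusted p = 0.0413) and Ccnb2 fell by 0.27 (adjusted p = 0.0393). The list mean was 9.67 to 9.98 in score-high tumours and 9.95 to 10.16 in score-low tumours. Of 28 MYC targets and ribosome biogenesis genes 4 fell, with a median of -0.14, and with Adm left out of the score none was called (median -0.13). Rrp9, a ribosomal RNA processing factor, fell by 0.39 (adjusted p = 0.0203), Bop1, of ribosome assembly, fell by 0.42 (adjusted p = 0.0413), Shmt1, of one-carbon metabolism, fell by 0.40 (adjusted p = 0.0229), and Cad, of pyrimidine synthesis, fell by 0.30 (adjusted p = 0.0471). Except for Rrp9, called in all 16 fits that left out a tumour, and Shmt1, in 14, the genes of this paragraph were called in 7 or fewer. By the mean of probe sets Shmt1 (-0.20, adjusted p = 0.325), Bop1 (-0.07, adjusted p = 0.667), Aurka (-0.15, adjusted p = 0.447) and Gins2 (-0.31, adjusted p = 0.0685) were not called. Cad kept its call there (-0.28, adjusted p = 0.0398).

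Mitochondrial and sterol genes were mostly negative in sign, with few calls. Over all genes tested, 40.3% were positive in sign and 1.63% were called lower. Of 34 oxidative phosphorylation genes 1 fell, Cyc1 (cytochrome c1, which fell by 0.24, adjusted p = 0.0381, called in 6 of the 16 fits that left out a tumour), and the median was -0.09. Ndufa4 differed by -0.29 (adjusted p = 0.0522), Cox5a by -0.20 (adjusted p = 0.0892) and Ndufa9 by -0.22 (adjusted p = 0.123), all subunits of respiratory complexes. None of 19 tricarboxylic acid cycle genes was called, with a median of -0.12 and Pdhx and Dld, of the pyruvate dehydrogenase complex, at -0.36 (adjusted p = 0.0518) and -0.24 (adjusted p = 0.0572). Fh1, fumarase, differed by -0.23 (adjusted p = 0.101) and Sucla2, a succinyl-CoA ligase subunit, by -0.23 (adjusted p = 0.11). Of 19 cholesterol synthesis genes 1 fell, the sterol isomerase Ebp (which fell by 0.38, adjusted p = 0.0439, called in 4 of the 16 fits), and 18 had a negative sign, with a median of -0.25. Idi1 differed by -0.53 (adjusted p = 0.0532), Fdft1 by -0.42 (adjusted p = 0.0511) and Sqle by -0.27 (adjusted p = 0.0965), all enzymes of the same pathway. With Adm left out of the score, 22 genes were called in all, and 3 of them were on this list, whose median was -0.41. They were Idi1 (-0.75, adjusted p = 0.0376), Fdft1 (-0.52, adjusted p = 0.0319) and Sqle (-0.41, adjusted p = 0.0478), while Ebp lost its call (-0.39, adjusted p = 0.147).

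**Figure D5:**
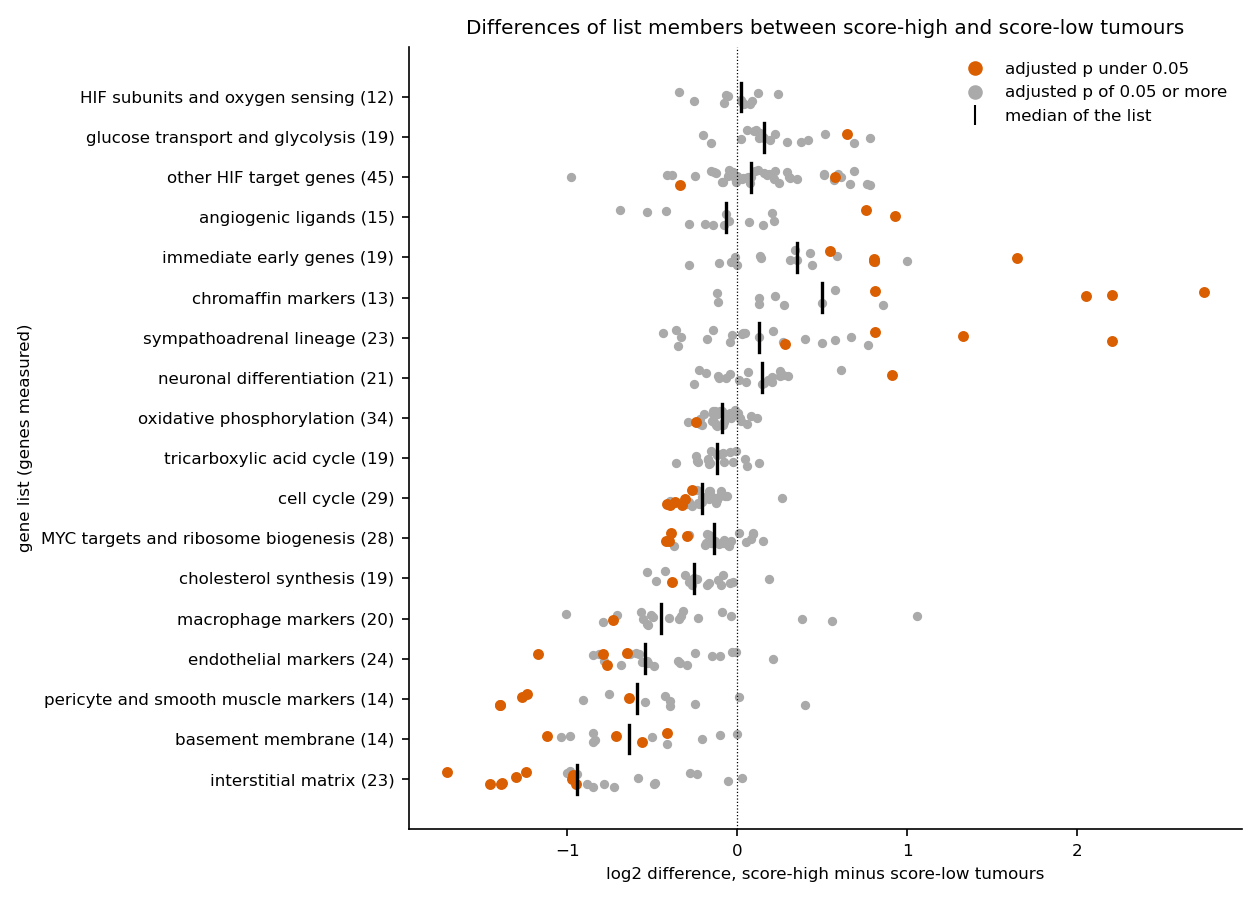
Log2 difference, score-high minus score-low tumours (x axis), of each measured member of 18 gene lists (y axis, number measured in brackets). Orange points passed an adjusted p of 0.05 and bars are list medians, which run from -0.94 for interstitial matrix to 0.50 for chromaffin markers.

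Array quality did not differ between the groups beyond its spread. The mean difference between 3' and 5' control probe sets, which grows as RNA degrades, was 0.72 ± 0.18 in score-high tumours and 0.76 ± 0.20 in score-low tumours (SD, n = 8 each, exact permutation two-sided p = 0.711). Tumours of the lower title series numbered 3 of 8 in the score-high group and 2 of 8 in the score-low group (Fisher's exact p = 1). Tumours with high Xist signal, which marks female cells, numbered 4 of 8 in the score-high group and 6 of 8 in the score-low group (Fisher's exact p = 0.608). A test of whether differences varied between the title series, added after seeing the data, called 0 genes by limma (lowest adjusted p = 0.589, 1336 at an unadjusted p under 0.05). No other tool was run for it.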

How the data were processed

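Total RNA from 24 tumours and 5 marrow samples was measured on 1 array each. The authors deposited log2 values made with RMA in Partek 6.6, per the submitters' processing notes. The sources used here do not say if this was done on all arrays at once. Low signals are compressed by RMA, and precision is limited by the number of arrays, for which there is no read depth.

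In all, 45101 probe sets were given. Through the platform annotation, updated by Entrez ID with RefSeq GRCm38.p6, 34945 had 1 gene symbol, 932 several, and 9160 other than controls had none listed. Each of 18193 genes was represented by its brightest probe set (by mean over the 29 arrays), without filtering. Signals of different genes are not compared with each other.

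Score groups were compared by two-sided tests with R 4.3.3 and limma 3.58.1 (functions lmFit, then eBayes), adjusted by Benjamini-Hochberg over 18188 genes, without covariates. The fits were tested on simulated data. Differences are score-high minus score-low on the log2 scale. Genes named were the 15 with the largest called difference in each direction, 9 fixed genes (Casp8, Mycn, Th, Dbh, Hif1a, Epas1, Vegfa, Slc2a1, Ldha) and the 4 of smallest p in each list described, with exceptions stated. The groups, gene lists and tests were chosen with earlier results of these data known. Promoter windows came from RefSeq tables. Fisher's exact and permutation tests used SciPy 1.17.1, and figures matplotlib 3.10.9. Alternatives changed the probe set rule, filter, normalization, weights, variance model, test, covariates, score and samples.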

Additional observations from a re-analysis of the deposited data

Results flagged for a closer look

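Among the named genes, 192 groups of 8 tumours were examined for a sample far from the others (Dixon's criterion), and 12 were found, where chance gives about 1 in 20, or 9.6. All values are log2 signals. Deficient tumour 16, a score-low tumour, stood apart 6 times. Its Doc2b was 3.86, against 4.69 to 5.33 in the other score-low tumours, and its Dzank1 was 3.64, against 4.85 to 5.49. It was high in Serpinh1 at 8.4, in Actg2 at 7.70, in Acta2 at 11.04 and in Col18a1 at 7.91. Wild type tumour 1, also score-low, was high in Casp8 at 6.91 and low in Dbh at 6.49 and in Vhl at 7.12. Among score-high tumours, deficient tumour 3 was high in Cdh11 at 5.00 and in Sox18 at 7.03, and wild type tumour 2 was high in Fos at 10.40. The causes were not tested.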

How the results depend on the processing

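All 527 genes called kept their sign in the alternatives run, except 1 gene in the lower title series alone and 8 with the mean of probe sets (not assessed for probe sets tested singly), while 82 genes were absent from the fit of genes with a mean log2 of at least 5. Counts were less stable. Below, genes called are followed in brackets by genes higher and genes lower as percent of those tested. They were 1162 (2.41% and 3.98%) with Xist status as a covariate, 865 (2.12% and 2.64%) with array weights, 273 (0.643% and 0.858%) with genotype as a covariate, and 168 (0.61% and 0.313%) for the score as a continuous measure over 24 tumours. An exact permutation per gene gave 242 (0.588% and 0.742%), every probe set on its own 1573 (2.17% and 1.32%), and deficient tumours alone 56 (0.242% and 0.066%). The matrix covariate gave 7 (0.0385% and 0%) by limma, with 2411 genes at an unadjusted p under 0.05. The lower title series alone, with 3 score-high against 2 score-low tumours, gave 0 (0% and 0%) by limma, with 1583 at an unadjusted p under 0.05, and the higher series gave 0.654% genes higher. A score without Adm gave 22 (0.0605% and 0.0605%), without Ankrd37 72 (0.203% and 0.192%), and without Bnip3 or without Ndrg1 131 (0.286% and 0.434%) each. A score without Egln3, and a mean of values scaled to each gene's SD, left the groups and all 527 calls unchanged. Leaving out 1 tumour gave 166 to 1100 genes called, 0.429% to 2.12% genes higher and 0.484% to 3.93% genes lower. The count called moved by over 1.5 times without deficient tumour 3 (1100), 5 (240), 8 (200), 9 (286), 11 (330), 12 (234), 13 (283) or 16 (166), and without wild type tumour 2 (236) or 6 (242). The causes were not tested.

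The score by genotype was -0.87 in the higher title series, where it passed, and 0.13 in the lower, where it reversed, as did caspase-8 genotype by hypoxia score group (Fisher's exact p = 1). Genes that reversed, none of them called there, were Casp8 without Adm in the score (0.038), Higd1a with the mean of probe sets (0.069), Nefh in the lower title series (0.0055) and Vhl with the matrix covariate (-0.054). Epas1 turned to -0.070 with Xist status, -0.12 in the higher title series, -0.0095 without Adm in the score and -0.011 with the title series as a block. Without 1 tumour it turned to -0.039, -0.092 and -0.0096 (deficient tumours 11, 3 and 8) and to -0.027 and -0.018 (wild type tumours 2 and 7). No paired analysis was possible because the titles give the groups no shared replicate numbers.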

Other observations

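The remaining lists, not described above, held few called genes. Of 19 autophagy and mitophagy genes, Gabarapl1, a family member of the autophagosome coat, rose by 0.56 (adjusted p = 0.0229) and Atg7, an enzyme of its conjugation, fell by 0.33 (adjusted p = 0.0196), with a list median of 0.04. Of 18 p53 target genes, Gtse1, a mitotic regulator of p53, fell by 0.43 (adjusted p = 0.0147), with a median of 0.03. These 3 genes are named after their values were seen. None passed among 24 unfolded protein and ATF4 response genes (median 0.14), 9 of pH and lactate handling (0.11), 15 of glycogen metabolism (-0.10), 11 heat shock genes (-0.06), 24 apoptosis and death receptor genes (-0.08), 17 interferon response genes (-0.22) and 19 inflammatory genes (-0.21).

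Markers of other cell types were not called either. Adipocyte markers ranged widely, with list means of 5.36 to 8.06 in score-high tumours and 6.09 to 7.77 in score-low tumours (median -0.34, 12 genes). Skeletal muscle markers were below 5 in most tumours of both groups but reached 6.71 in 1 score-high tumour, wild type tumour 7, and 8.65 in 1 score-low tumour, deficient tumour 11 (median -0.36, 15 genes). Adrenal cortex and kidney tubule markers stayed between 4.02 and 4.26 in both groups. Medians were 0.07 for 13 neutrophil markers, -0.06 for 15 T and NK cell markers, -0.18 for 11 B and plasma cell markers, -0.13 for 11 erythroid markers and -0.15 for 11 Schwann cell markers.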
